A study of Mus musculus with 12 samples.

Results

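Transcripts of 10 genes that bring iron into mouse macrophages, store it, send it out or sense it were followed across 12 RNA-seq libraries. The genes are Tfrc, Steap3, Slc11a2, Slc11a1, Slc40a1, Fth1, Ftl1, Ncoa4, Ireb2 and Aco1. They were chosen by symbol from what they are known to do, though with earlier results of these data known. All 10 were found, in each of the 12 libraries, among 16145 genes listed in at least 1 of them. The cells were bone marrow-derived macrophages, which grow from mouse marrow during a week of culture with the growth factor M-CSF. There were 4 groups of 3 libraries. The wild-type groups were given vehicle (12 h), 15 µM hemin (12 h) or 120 µM 4-OI (15 h), and the Irg1KO group was given vehicle (12 h). Hemin is the oxidised form of heme and carries iron. 4-OI, 4-octyl itaconate, is an ester of itaconate that passes into cells. Irg1 was renamed Acod1, and its enzyme produces itaconate. The labels give no strain, sex, age or allele for the mice, and they do not state the solvent used as vehicle. They also do not tie the libraries of a group to different mice or dishes, so every p-value here measures the spread between these libraries, which may be technical. The 4-OI cells were also collected later than the others, so an effect of the compound and one of the hours cannot be told apart.

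Macrophages clear old red cells and return the iron of their heme to the blood, so they hold and release much of the iron that a mouse uses. Transferrin-bound iron enters through the transferrin receptor. It is reduced and carried out of the endosome, used or stored in ferritin, and leaves the cell through ferroportin. When iron is scarce, the iron regulatory proteins IRP1 and IRP2 bind a hairpin in certain mRNAs, the iron responsive element. Bound near the start of an mRNA they block its translation, as for ferritin and ferroportin. Bound in the 3′ untranslated region they protect the mRNA from decay, as for the transferrin receptor. RNA-seq reads the amount of mRNA and not its translation.

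The hairpins are printed here because they are the sequences that the regulatory proteins among the 10 genes bind. A search of the reference transcripts (GENCODE M21, build GRCm38) used the letters CNNNNNCAGTGN followed by 5 bases that pair with the 5 before the loop, G-T pairs allowed, on the sense strand only. Capitals mark the bulged C and the 6 bases of the loop. Single sites lay in the 5′ untranslated regions of Fth1 (chr19:9982731-9982760, plus strand), Ftl1 (chr7:45459779-45459808, minus strand) and Slc40a1 (chr1:45925465-45925494, minus strand).

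Fth1: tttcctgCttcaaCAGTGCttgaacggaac

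Ftl1: tgtcttgCttcaaCAGTGTttgaacggaac

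Slc40a1: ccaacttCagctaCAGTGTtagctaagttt

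The search found 4 sites in Tfrc, all in its 3′ untranslated region on the plus strand of chromosome 16, at chr16:32631218-32631247, chr16:32631597-32631626, chr16:32631662-32631691 and chr16:32631709-32631738.

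Tfrc site 1: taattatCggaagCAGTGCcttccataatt

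Tfrc site 2: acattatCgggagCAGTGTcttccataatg

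Tfrc site 3: tctatatCggagaCAGTGAtctccatatgt

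Tfrc site 4: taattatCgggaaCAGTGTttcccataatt

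These letters occur somewhere in the transcripts of 1.34% of 21877 coding genes, and in 4 of the 10 iron genes. Slc11a2, of which some isoforms are known to carry such an element, was not matched, so this strict search misses known elements. A match is a description of the sequence and not a measured binding site. The deposited values were made on another build, GRCm39, so the positions belong to the reference and not to the files.

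The libraries held 9405112 to 22390882 expected counts each, and the lowest count of any of the 10 genes in any library was 397, for Steap3. Acod1, the gene named in the knockout label, had a level of 20.5 ± 6.41 CPM (SD, n = 3) in Irg1KO and 27.7 ± 2.74 CPM in wild-type vehicle, and these gene-level values overlapped. Its deposited FPKM, which divide by transcript length, did not overlap (4.2 to 8.76 in Irg1KO, 10.26 to 12.29 in wild-type vehicle). The mean length of its transcripts was 3217 ± 144 nucleotides in Irg1KO and 2644 ± 9.09 nucleotides in wild-type vehicle. CPM here are counts relative to the TMM-scaled library size, comparable between libraries but not between genes of different length. All 9 macrophage markers were found and summed to between 22338 and 27195 CPM in the 12 libraries. Most of this sum was Lyz2 (16968 ± 1557 CPM in Irg1KO, 16782 ± 393 CPM in wild-type vehicle). Single markers differed in both directions: Adgre1 averaged 1946 CPM in Irg1KO and 1543 CPM in wild-type vehicle, and Csf1r 1898 and 2206 CPM. Markers of marrow stroma and fibroblasts summed to 11369 to 12741 CPM in Irg1KO and 1757 to 2421 CPM in the 9 wild-type libraries. Most of the Irg1KO sum was Col1a1 (4850 ± 299 CPM, against 816 ± 118 CPM in wild-type vehicle) and Col1a2 (3517 ± 189 against 654 ± 65.3 CPM). Dcn and Lum, also listed, averaged at most 0.288 CPM in every group. The other listed stromal markers averaged higher in Irg1KO than in each wild-type group. With bulk RNA, fewer cells of a type and less RNA per cell cannot be told apart.

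In wild-type vehicle cells the 10 genes ranged from ferritin, among the most abundant mRNAs of the cell, to levels of ordinary genes. On the FPKM scale, which divides by transcript length and so allows genes to be compared, the ferritin light chain Ftl1 stood at 16153 ± 303 and ranked 2 among 14980 genes. The heavy chain Fth1 followed at 11151 ± 941 FPKM, rank 3. Slc11a1, which pumps divalent metals out of the phagosome, was at 246 ± 15.8 FPKM. Ferroportin, encoded by Slc40a1, was at 154 ± 14.7 FPKM and Tfrc at 91.4 ± 2.11 FPKM. Ncoa4, the receptor that delivers ferritin to autophagy, was at 56.6 ± 1.67 FPKM. The lowest of the 10 were Aco1 (26.9 ± 0.470 FPKM), Ireb2 (22.1 ± 0.997 FPKM), Slc11a2 (20.3 ± 1.85 FPKM) and Steap3 (17.4 ± 0.466 FPKM). The ranges of neighbours overlapped only between Ireb2 and Slc11a2.

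**Figure D1:**
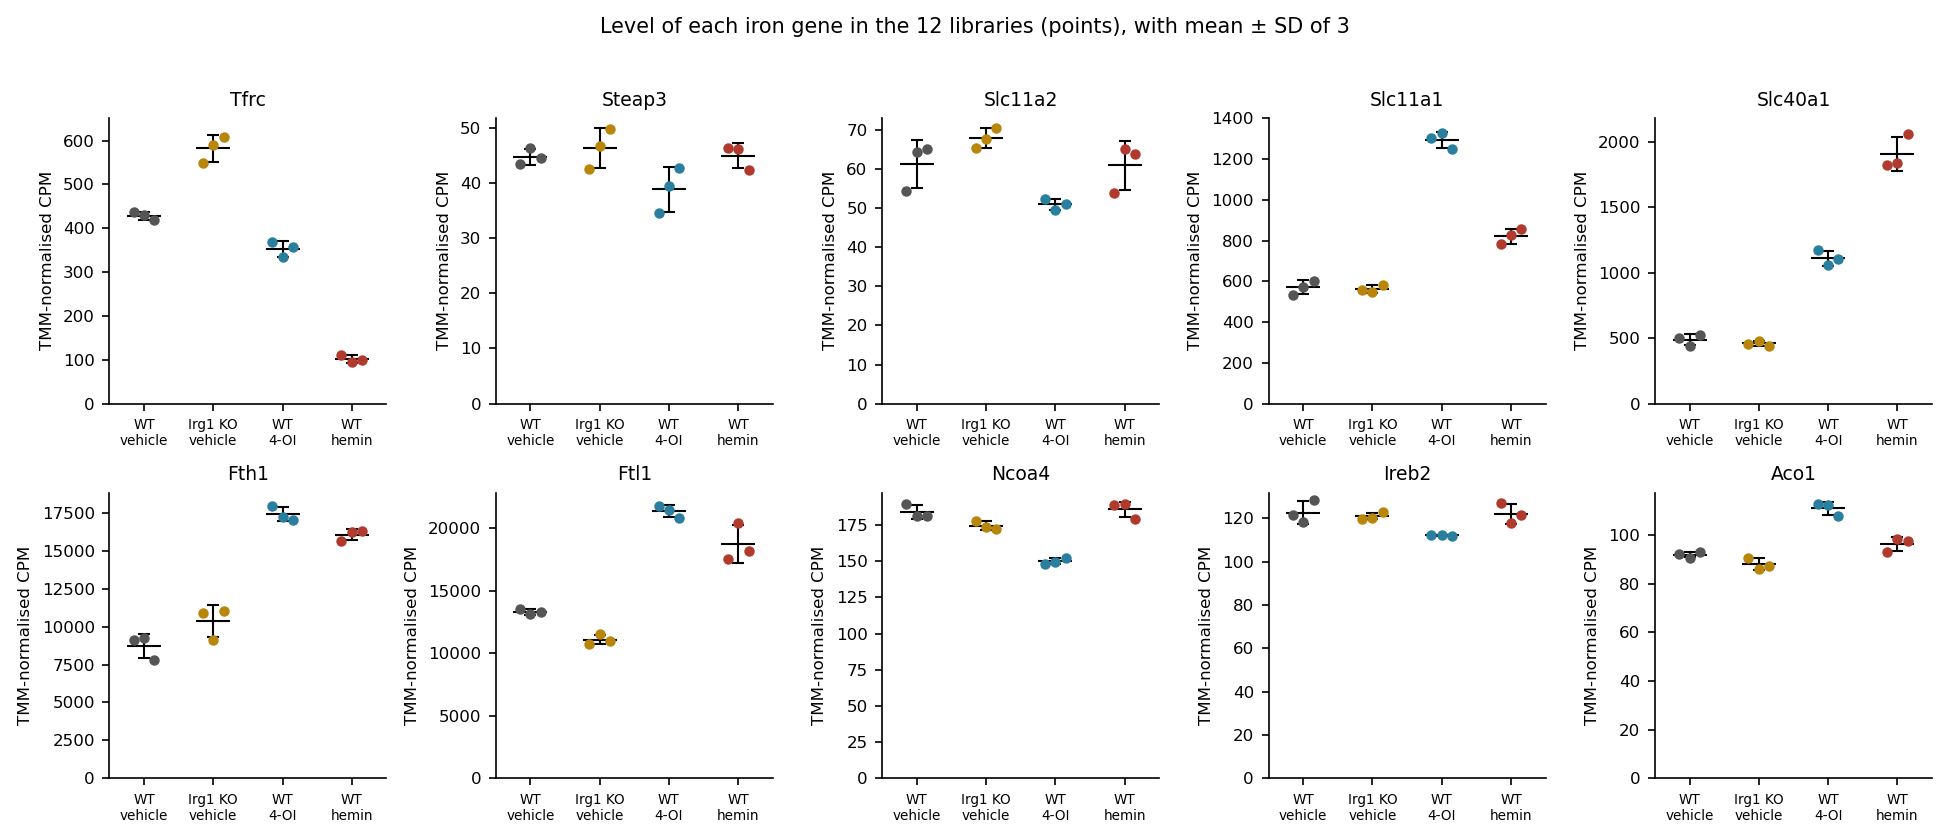
Levels of the 10 iron genes as TMM-normalised CPM (vertical axes, linear from 0) in the 4 groups; each point is a library, and the bars give the mean ± SD of 3 libraries. Tfrc is lowest and Slc40a1 highest in the hemin libraries, Slc11a1 and Ftl1 are highest with 4-OI, and Tfrc is highest in Irg1KO.

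Hemin moved a few of the 10 genes far and left the others near vehicle. Of the 10, 5 changed, where 17.2% of all 12148 genes tested changed at an adjusted p under 0.05. Slc40a1, Fth1, Slc11a1 and Ftl1 rose (4 of 10, beside 9.48% of all genes) and Tfrc fell (1 of 10, beside 7.74%). The other 5 had log2 fold changes between -0.01 and 0.07. With 4-OI all 10 passed the test, beside 50.4% of all genes. Slc40a1, Slc11a1, Fth1, Ftl1 and Aco1 were higher (5 of 10, beside 25.4%) and Ncoa4, Tfrc, Slc11a2, Steap3 and Ireb2 lower (5 of 10, beside 25.0%). In Irg1KO, 3 of 10 passed, beside 39.8% of all genes. Tfrc and Fth1 were higher (beside 23.5%) and Ftl1 lower (beside 16.3%). Between 4-OI and hemin directly, 9 of 10 passed, all but Fth1, beside 42.3% of all genes, 4 higher with 4-OI (beside 20.6%) and 5 lower (beside 21.7%). Of these 9 calls, Ireb2 was lost in 10 of 15 alternatives, Steap3 in 4 and Ftl1 in 2, and Fth1 passed in 1. The libraries of the groups compared did not overlap in CPM for 6 of the 10 with hemin (beside 30.7% of all genes), 10 with 4-OI (beside 56.5%), 4 in Irg1KO (beside 49.7%) and 9 between 4-OI and hemin (beside 49.8%). The median log2 fold change of the 10 was 0.04 with hemin, 0.07 with 4-OI and -0.02 in Irg1KO and within 0.01 of 0 over all genes in each comparison. These small medians join opposite movements. The 3 comparisons with wild-type vehicle share its 3 libraries, so their results are not independent.

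**Figure D2:**
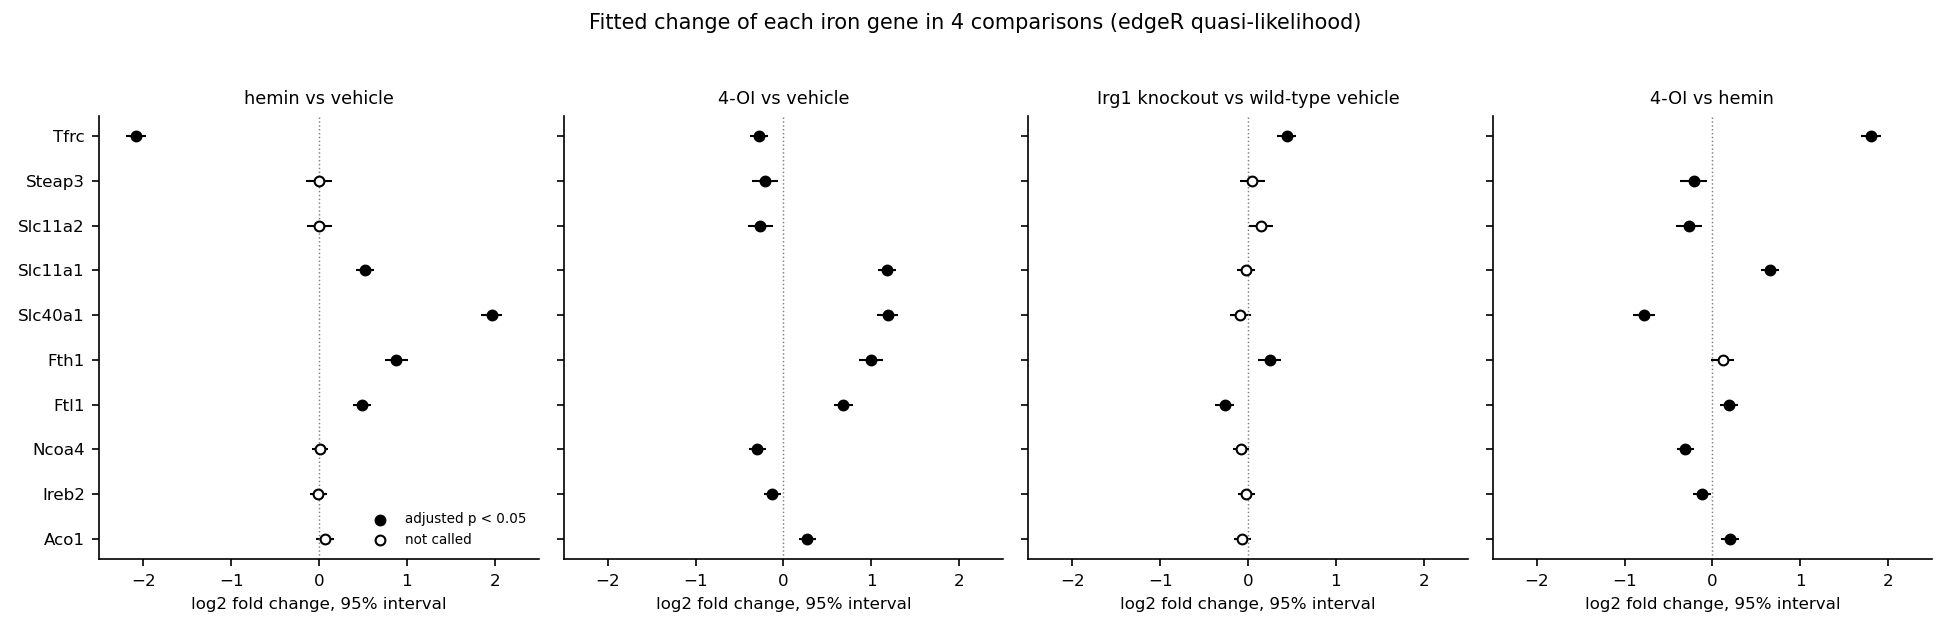
Fitted log2 fold change (horizontal axis) of each iron gene in 4 comparisons, with 95% intervals from the edgeR quasi-likelihood fit; filled points passed at an adjusted p under 0.05 over all genes. The hemin panel shows Tfrc at -2.08 and Slc40a1 at 1.96 with 5 genes at about 0, the 4-OI panel has all 10 points filled, and the Irg1KO panel stays within 0.44 of 0.

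Tfrc, the transferrin receptor, showed the widest range of the 10 genes. Its level was 437, 430.3 and 419 CPM in the 3 vehicle libraries, 111, 94.6 and 98.8 CPM with hemin, 369.7, 334 and 357 CPM with 4-OI and 549, 589.9 and 608 CPM in Irg1KO. The 4 groups did not overlap, and ran from hemin at the bottom through 4-OI and vehicle to Irg1KO at the top. Hemin lowered it 4.24-fold (log2 fold change -2.08, SE 0.06, adjusted p = 4.62e-26), and no other of the 9679 genes averaging 5 CPM or more had a lower fold change. With 4-OI it fell by 0.28 on the log2 scale (SE 0.05, adjusted p = 2.3e-05). Between 4-OI and hemin directly, the level with 4-OI was 3.49-fold higher (log2 difference 1.81, SE 0.06, adjusted p = 1.15e-24). In Irg1KO it rose by 0.44 (SE 0.05, adjusted p = 4.83e-09), in the libraries where the stromal markers were raised; their part in this result was not tested. Tfrc is known to be high in dividing cells, so 18 mitosis genes are given beside it. Of these 18, 9 fell with hemin (median log2 fold change -0.17), 18 fell with 4-OI (median -1.23) and 18 fell in Irg1KO (median -0.33). Their part in the values of Tfrc was not tested. Erythroid cells also carry much Tfrc; the 4 erythroid markers analysed here, Klf1, Epor, Rhd and Alas2, summed to at most 0.578 CPM in any library, with Alas2 at 0 in Irg1KO and with 4-OI.

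Steap3 and Slc11a2 act on the same endosomal path as Tfrc; both were lower with 4-OI, and neither passed the test with hemin or in Irg1KO. Steap3, the ferrireductase of the transferrin endosome, was at 43.3, 46.2 and 44.4 CPM in vehicle, 46.3, 46.04 and 42.3 CPM with hemin, 34.5, 39.4 and 42.6 CPM with 4-OI and 42.5, 46.7 and 49.7 CPM in Irg1KO. Only with 4-OI did all 3 libraries lie below those of vehicle, with a narrow gap. Hemin replicate 3 (42.3 CPM) and Irg1KO replicate 1 (42.5 CPM) were also below every vehicle library. Its log2 fold change with 4-OI was -0.21 (SE 0.07, adjusted p = 0.0154), and this call was lost without 4-OI replicate 1 (-0.13, adjusted p = 0.169) or without vehicle replicate 2 (-0.18, adjusted p = 0.0725). With hemin it was 0.00 (95% interval -0.14 to 0.15) and in Irg1KO 0.05 (-0.09 to 0.19). Between 4-OI and hemin it was -0.21 (SE 0.08, adjusted p = 0.0209), and this call was lost with DESeq2 (adjusted p = 0.0669) and without 4-OI replicate 1 (-0.13, adjusted p = 0.190), hemin replicate 1 (adjusted p = 0.0591) or hemin replicate 2 (adjusted p = 0.0709).

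Slc11a2, also called DMT1, carries ferrous iron out of the endosome. It was at 54.3, 64.4 and 65.2 CPM in vehicle, 53.9, 65.2 and 63.96 CPM with hemin, 52.4, 49.5 and 51.1 CPM with 4-OI and 65.4, 67.8 and 70.6 CPM in Irg1KO. The 4-OI libraries were the lowest of the 4 groups, and those of Irg1KO lay above all others. With 4-OI it fell by 0.26 on the log2 scale (SE 0.07, adjusted p = 0.00212). The change with hemin was 0.00 (95% interval -0.14 to 0.14, adjusted p = 0.986). In Irg1KO it was 0.15 (0.01 to 0.29) and did not pass over all genes (adjusted p = 0.0798).

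Slc11a1, also called NRAMP1, is the macrophage metal pump of the phagosome membrane and a known resistance gene for intracellular infection. Its level was 534, 574 and 603 CPM in vehicle, 782, 827 and 856 CPM with hemin, 1303, 1327 and 1249.97 CPM with 4-OI and 555, 546 and 583 CPM in Irg1KO. Both treated groups lay above vehicle and apart from each other, while Irg1KO lay within the range of vehicle. The rise was 2.27-fold with 4-OI (log2 fold change 1.18, SE 0.05, adjusted p = 2.83e-21) and 1.44-fold with hemin (0.53, SE 0.05, adjusted p = 2.92e-10). The level with 4-OI was 1.57-fold that with hemin (log2 difference 0.65, SE 0.05, adjusted p = 1.16e-13). In Irg1KO the log2 fold change was -0.02 (95% interval -0.12 to 0.08). Neutrophils also express Slc11a1. The 8 neutrophil markers found summed to 339 to 361 CPM with 4-OI and 83.9 to 94.4 CPM in vehicle, mostly Mmp8 (313 ± 16.7 against 79.5 ± 5.30 CPM) and S100a8 (31.2 ± 5.56 against 2.39 ± 0.403 CPM). The other 6, the granule genes Mpo and Elane among them, averaged at most 3.24 CPM in either group. Their part in the rise of Slc11a1 was not tested.

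Slc40a1, or ferroportin, is the only known exporter of iron from mammalian cells. It was at 501, 440.1 and 525 CPM in vehicle, 1823, 1839 and 2056 CPM with hemin, 1169.7, 1056 and 1106 CPM with 4-OI and 458, 481 and 440.5 CPM in Irg1KO. Hemin gave the highest libraries and 4-OI the next, both clear of vehicle, while Irg1KO and vehicle overlapped. It rose 3.90-fold with hemin (log2 fold change 1.96, SE 0.06, adjusted p = 3.67e-20) and 2.27-fold with 4-OI (1.19, SE 0.06, adjusted p = 2.77e-16). The direct difference, 4-OI minus hemin, was -0.78 on the log2 scale (SE 0.06, adjusted p = 4.97e-12). Slc11a1 and Slc40a1 were therefore ordered oppositely by the treatments, the first higher with 4-OI and the second with hemin. In Irg1KO the log2 fold change of Slc40a1 was -0.09 (SE 0.06, adjusted p = 0.268); without vehicle replicate 2 it passed the threshold (-0.16, adjusted p = 0.0259). Hmox1, the oxygenase that frees iron from heme, rose with both treatments, by 2.97 with hemin and 2.26 with 4-OI on the log2 scale.

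Fth1 encodes the ferritin heavy chain, which oxidises iron as it enters the storage shell. The vehicle libraries held 9089.9, 9280.6 and 7795 CPM, the hemin libraries 15659.7, 16266 and 16279 CPM, the 4-OI libraries 17947, 17255 and 17037 CPM and the Irg1KO libraries 10902, 9142 and 11008 CPM. It was well above vehicle in both treated groups, whereas 1 of the 3 Irg1KO libraries lay inside the range of vehicle. The rise was 2.00-fold with 4-OI (log2 fold change 1.00, SE 0.06, adjusted p = 3.16e-13) and 1.84-fold with hemin (0.88, SE 0.06, adjusted p = 6.12e-11). Between the treatments the log2 difference was 0.12 (95% interval -0.02 to 0.25, adjusted p = 0.153), which leaves room for a difference of up to that upper limit; with only those groups fitted it was 0.12 with an adjusted p of 0.0407. In Irg1KO it rose by 0.25 (SE 0.06, adjusted p = 0.00275).

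Ftl1 encodes the light chain, which helps the iron core to form. Its level was 13561, 13109.7 and 13308 CPM in vehicle, 17507, 20434 and 18205 CPM with hemin, 21778, 21442 and 20833 CPM with 4-OI and 10756, 11502 and 11014 CPM in Irg1KO. No group overlapped another, with 4-OI highest and Irg1KO lowest. It rose by 0.68 on the log2 scale with 4-OI (SE 0.05, adjusted p = 1.21e-13) and by 0.49 with hemin (SE 0.05, adjusted p = 6.01e-09), and fell by 0.26 in Irg1KO (SE 0.05, adjusted p = 8.29e-05). Light and heavy chain thus moved in opposite directions in Irg1KO, the libraries with raised stromal markers, whose part in this was not tested. Ftl1 was 0.19 higher with 4-OI than with hemin (SE 0.05, adjusted p = 0.00344), a call that was lost on the deposited FPKM (0.11 with 1 added, adjusted p = 0.158). Among symbols that begin with Fth or Ftl, only 1 ferritin pseudogene was listed, Ftl1-ps2, with at most 14 counts in a library. Copies under other names were not searched for, so reads assigned to them are not known.

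Ncoa4 hands ferritin to the autophagosome so that its iron can be freed. It was at 189, 181 and 181 CPM in vehicle, 189, 189 and 179.5 CPM with hemin, 148, 149 and 153 CPM with 4-OI and 178, 173.5 and 172 CPM in Irg1KO. The 4-OI libraries stood below all others. Ncoa4 fell by 0.30 on the log2 scale with 4-OI (SE 0.05, adjusted p = 1.17e-06), in the libraries in which both ferritin chains rose. With hemin, which raised both chains as well, it changed by 0.01 (95% interval -0.08 to 0.11), and the difference between 4-OI and hemin was -0.31 (SE 0.05, adjusted p = 9.59e-07). In Irg1KO the log2 fold change was -0.08 (SE 0.05, adjusted p = 0.183).

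The mRNAs of the regulators moved little. Ireb2, which encodes IRP2, was at 121, 118 and 128 CPM in vehicle, 127, 118 and 121 CPM with hemin, 112, 112 and 112 CPM with 4-OI and 119.9, 120.4 and 123 CPM in Irg1KO. The 4-OI libraries lay just below the others. The log2 fold change with 4-OI was -0.13 (SE 0.05, adjusted p = 0.0301) and did not hold without each of the 3 4-OI libraries (adjusted p = 0.0596 to 0.0688), without vehicle replicate 3 (-0.09, adjusted p = 0.157) or with DESeq2 (-0.11, adjusted p = 0.0709). With hemin it was -0.01 (95% interval -0.10 to 0.09) and in Irg1KO -0.02 (-0.11 to 0.08). Between 4-OI and hemin the difference was -0.12 (SE 0.05, adjusted p = 0.0481), and it did not pass without any 1 of the 3 4-OI libraries (lowest adjusted p = 0.0882), without hemin replicate 1 (-0.09, adjusted p = 0.169) or replicate 3 (adjusted p = 0.0892), or in 5 of the other alternatives.

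Aco1 encodes IRP1, which is cytosolic aconitase while it holds an iron-sulfur cluster. Its level was 92.3, 90.7 and 92.96 CPM in vehicle, 93.01, 98.2 and 97.8 CPM with hemin, 113, 112 and 108 CPM with 4-OI and 90.7, 86.1 and 87.3 CPM in Irg1KO. The 4-OI libraries lay above all others, and the lowest hemin library was almost level with the highest vehicle library. Aco1 rose by 0.27 with 4-OI (SE 0.05, adjusted p = 1.51e-05), while the values were 0.07 with hemin (95% interval -0.03 to 0.17) and -0.06 in Irg1KO (-0.16 to 0.04). The direct difference between 4-OI and hemin was 0.20 (SE 0.05, adjusted p = 0.00113). Fbxl5, an iron-sensing subunit of the ubiquitin ligase that degrades IRP2, moved more than either regulator: it rose with 4-OI from 76.6 ± 2.01 to 167 ± 6.95 CPM (log2 fold change 1.12, SE 0.06, adjusted p = 4.92e-18) and by 0.21 with hemin (SE 0.06, adjusted p = 0.0149). The hemin call of Fbxl5 was lost without hemin replicate 1 (0.15, adjusted p = 0.0935) or replicate 3 (0.19, adjusted p = 0.0747) and on FPKM (adjusted p = 0.140 with 1 added). Its level differed by 0.92 between 4-OI and hemin (SE 0.06, adjusted p = 4.05e-15).

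Ratios between genes of the same library do not depend on how libraries are scaled. The ferritin share given below is relative to all counts of the library, so this does not hold for it. With 3 libraries against 3 the smallest p of the exact two-sided permutation test is 0.10, so such ratios are described by their overlap. The Slc40a1 to Tfrc FPKM ratio, export against uptake, was 1.69, 1.51 and 1.85 in vehicle, 24.1, 28.8 and 30.7 with hemin, 4.67, 4.67 and 4.57 with 4-OI and 1.23, 1.21 and 1.07 in Irg1KO. All 4 groups were apart, hemin by far the highest and Irg1KO the lowest. Tfrc per 1000 Fth1 FPKM averaged 8.23 ± 0.604 in vehicle, 1.05 ± 0.121 with hemin, 3.39 ± 0.141 with 4-OI and 9.37 ± 1.23 in Irg1KO, where it overlapped vehicle. The heavy to light chain ratio, Fth1 to Ftl1, was 0.707, 0.747 and 0.619 in vehicle and higher in every other library, at 0.944, 0.841 and 0.944 with hemin, 0.869, 0.849 and 0.863 with 4-OI and 1.07, 0.839 and 1.06 in Irg1KO. With hemin and with 4-OI both chains and the ratio were higher than in vehicle. In Irg1KO the ratio was higher while the light chain was lower. The 2 ferritin genes together took 2.30 ± 0.0913% of all expected counts in vehicle, 3.47 ± 0.170% with hemin, 3.67 ± 0.0886% with 4-OI and 2.18 ± 0.0648% in Irg1KO. The share overlapped between Irg1KO and vehicle, so the opposite movements of the chains left the sum about level. The Aco1 to Ireb2 ratio was 1.22 ± 0.0349 in vehicle and 1.63 ± 0.0407 with 4-OI, without overlap, and 1.29 ± 0.0841 with hemin, with overlap.

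**Figure D3:**
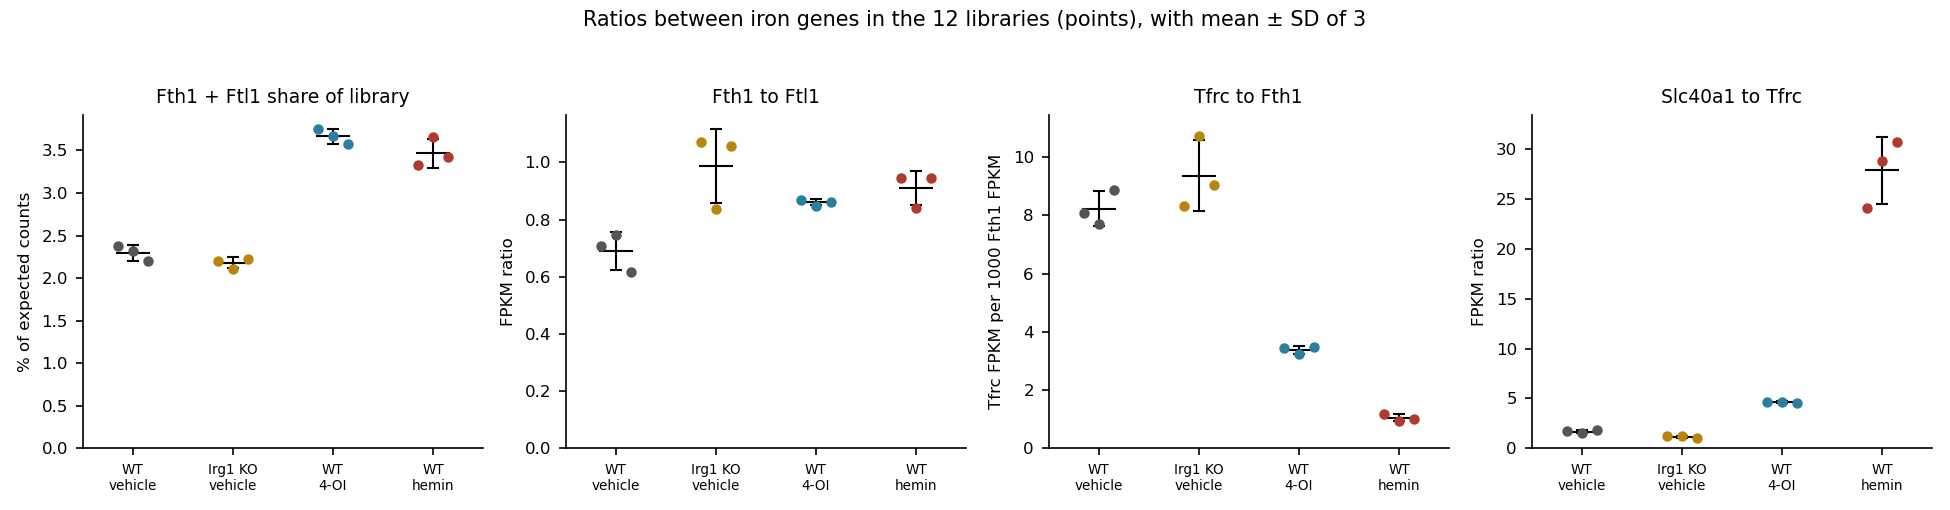
Ferritin share of expected counts and 3 FPKM ratios (vertical axes from 0) in the 4 groups; points are libraries and bars the mean ± SD of 3. The Slc40a1 to Tfrc ratio is 24.1 to 30.7 with hemin and at most 4.67 elsewhere, and the Fth1 to Ftl1 ratio of every other library lies above the 3 vehicle libraries.

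The files also give the mean transcript length of each gene, weighted by the abundance of its isoforms, and a shift in it reads isoform use. Fth1 and Ftl1 had 1 length throughout, 942 and 986 nucleotides. For Slc11a2, whose known isoforms differ in whether their 3′ end carries an iron responsive element, the length was 3200.4, 3268 and 3209 nucleotides in vehicle, 3158, 3165 and 3203 with hemin, 3254, 3254 and 3360.2 with 4-OI and 3370.4, 3406 and 3355 in Irg1KO. Irg1KO lay above vehicle without overlap, by 4.70%, but this did not pass over all genes (limma, adjusted p = 0.116). The lengths of the other 8 genes were tested. In 4-OI, 2 of these 8 passed, beside 0.964% of 7988 genes: Slc11a1 was shorter by a log2 difference of -0.03 (2461 ± 5.66 against 2507 ± 8.54 nucleotides, adjusted p = 0.0236) and Aco1 by -0.02 (3572 ± 4.43 against 3621 ± 7.82 nucleotides, adjusted p = 0.0428). Leaving out any 1 of the 6 libraries ended both calls, with an adjusted p of 0.0513 to 0.0863 for Slc11a1 and 0.0949 to 0.140 for Aco1. None of the 8 passed in Irg1KO, beside 0.488% of all genes, nor with hemin, where limma called 0 of the 7988 genes and 479 had an unadjusted p under 0.05.

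**Figure D4:**
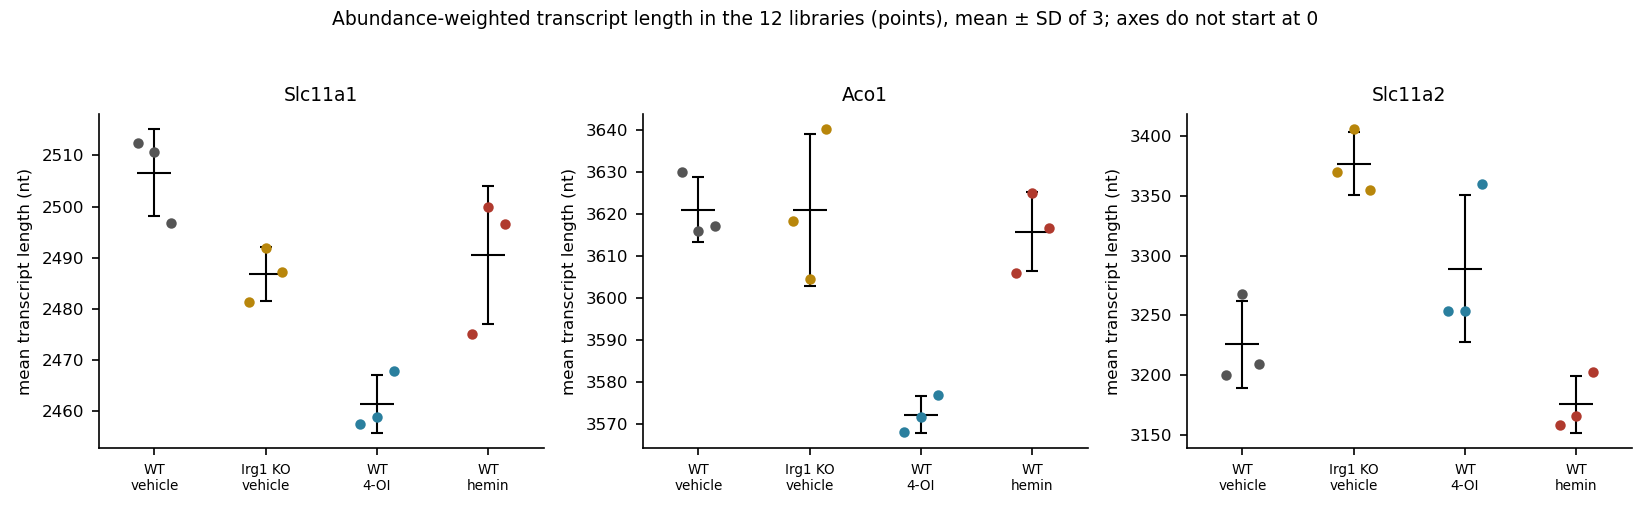
Abundance-weighted mean transcript length in nucleotides (vertical axes, which do not start at 0) of Slc11a1, Aco1 and Slc11a2 in the 4 groups; points are libraries and bars the mean ± SD of 3. Slc11a1 and Aco1 are shortest with 4-OI, by under 2%, and Slc11a2 is longest in Irg1KO, with 1 of the 4-OI libraries inside the Irg1KO range.

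The other genes of iron handling were taken from lists. Of 16 tested genes of iron uptake, reduction and delivery, 3 rose and 2 fell with hemin, 5 rose and 4 fell with 4-OI, and 6 rose and 4 fell in Irg1KO. These are 5, 9 and 10 of 16 called, beside 17.2%, 50.4% and 39.8% of all genes. Their median log2 fold changes were -0.04, -0.06 and -0.06. Slc39a8, a zinc and iron importer, fell by 1.57 on the log2 scale with 4-OI (SE 0.11, adjusted p = 2.2e-15) and by 0.74 with hemin (SE 0.10, adjusted p = 2.57e-07), and its relative Slc39a14 rose by 0.44 with 4-OI (SE 0.06, adjusted p = 7.41e-08). Steap2, a metalloreductase, rose by 2.13 in Irg1KO (SE 0.10, adjusted p = 5.66e-20), from 8.24 ± 0.866 to 36.01 ± 3.64 CPM. Tfr2, the second transferrin receptor, rose there by 2.97 (SE 0.43, adjusted p = 4.43e-07) but only from 0.216 ± 0.113 to 1.60 ± 0.497 CPM. Stromal markers were raised in the same libraries, and their part in these values was not tested. Without vehicle replicate 2 the Irg1KO count of this list was 6 in place of 10, and the hemin count was 3 in place of 5 without vehicle replicate 3, hemin replicate 2 or hemin replicate 3.

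Of 16 tested genes of iron chaperoning, storage and export, 2 rose and 1 fell with hemin, 6 rose and 4 fell with 4-OI, and 7 rose and 3 fell in Irg1KO, with medians of -0.01, 0.10 and 0.09. These are 3, 10 and 10 of 16 called, beside the same 17.2%, 50.4% and 39.8% of all genes. Heph, a ferroxidase that works with ferroportin, rose by 2.72 with 4-OI (SE 0.24, adjusted p = 5.13e-12), reaching 5.93 ± 0.337 CPM from 0.872 ± 0.109 CPM, and by 1.81 in Irg1KO (SE 0.26, adjusted p = 4.89e-07). Cp, ceruloplasmin, another ferroxidase, rose by 1.29 in Irg1KO (SE 0.16, adjusted p = 1.73e-08), to 8.03 ± 0.431 CPM, and fell by 0.73 with 4-OI (SE 0.21, adjusted p = 0.00458). The part of the raised stromal markers in the Irg1KO values was not tested. Smad6, an inhibitor of the BMP signalling that controls hepcidin, fell by 0.71 with 4-OI (SE 0.09, adjusted p = 8.61e-09) and by 0.43 with hemin (SE 0.08, adjusted p = 0.000272). Without hemin replicate 3 the hemin count was 1 in place of 3.

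Of 17 tested genes of IRP control and cytosolic iron-sulfur assembly, 4 rose and 0 fell with hemin, 4 rose and 2 fell with 4-OI, and 1 rose and 4 fell in Irg1KO, with medians of 0.08, 0.07 and -0.01; at an unadjusted p under 0.05 the 3 counts were 7, 8 and 6. These are 4, 6 and 5 of 17 called, again beside 17.2%, 50.4% and 39.8% of all genes. Apart from Fbxl5, the changes were small. Hif1a, a hypoxia factor whose protein is degraded with the help of iron, rose by 0.36 with hemin (SE 0.05, adjusted p = 8.39e-07), by 0.24 in Irg1KO (SE 0.05, adjusted p = 0.000141) and by 0.19 with 4-OI (SE 0.05, adjusted p = 0.00156), the last lost on FPKM (0.04 with 1 added, adjusted p = 0.498). Usp7, a deubiquitinase, fell by 0.23 in Irg1KO (SE 0.05, adjusted p = 0.000129). Without hemin replicate 3 the hemin count was 2 in place of 4. There Nubp2, Fbxl5 and Ciapin1 were lost, and Nubp1, which was lower (-0.26, adjusted p = 0.0179), was gained. Without vehicle replicate 2 or Irg1KO replicate 1 the Irg1KO count was 3 in place of 5.

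**Figure D5:**
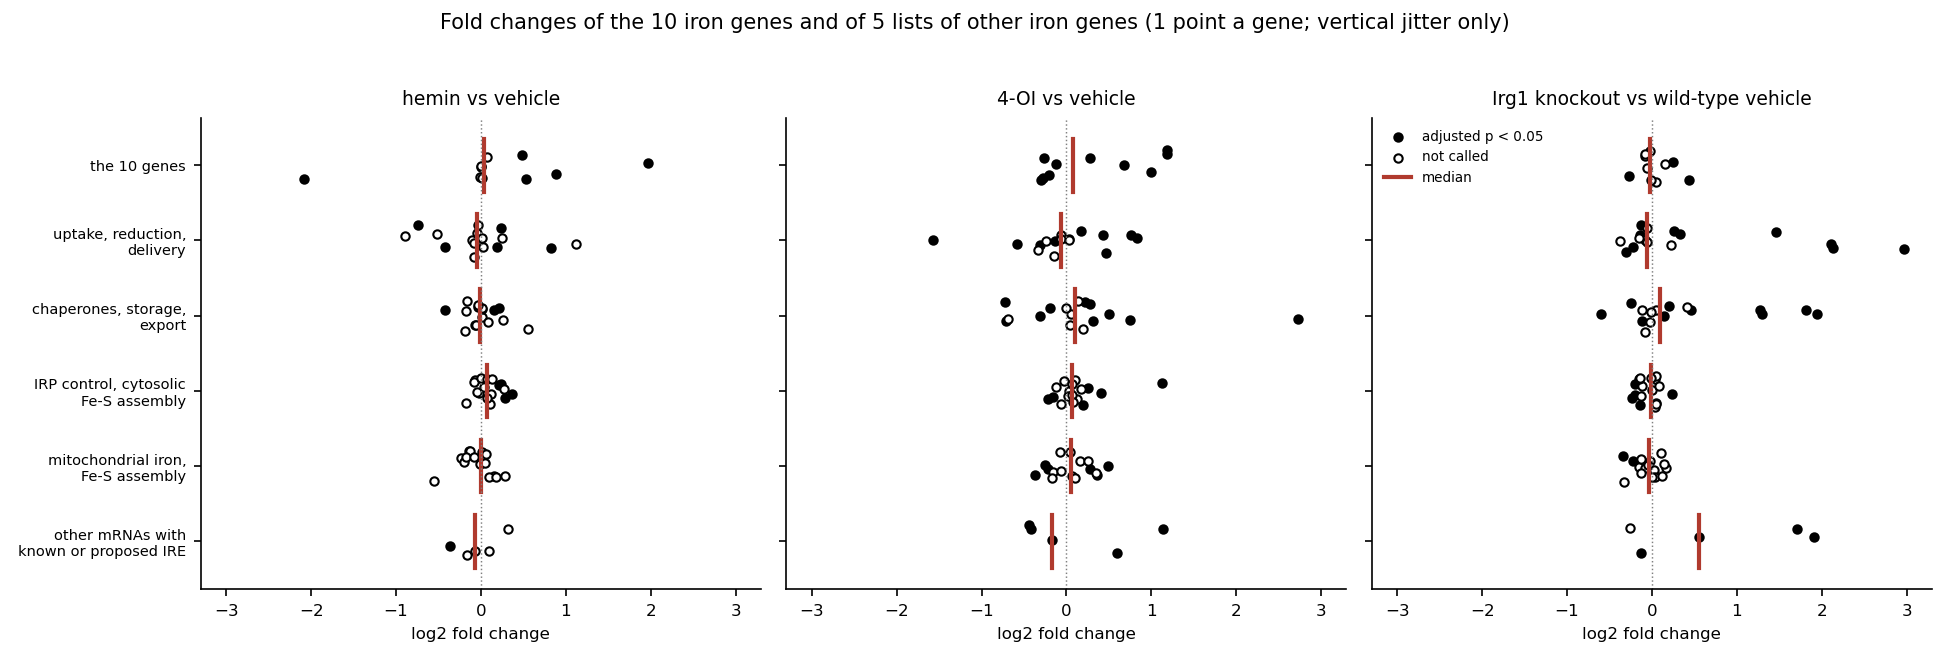
Log2 fold changes (horizontal axis) of the 10 iron genes and of 5 lists of other iron genes in 3 comparisons; each point is a gene, filled where it passed at an adjusted p under 0.05, and bars are medians. With hemin, Tfrc at -2.08 and Slc40a1 at 1.96 lie beyond every gene of the lists, while with 4-OI and in Irg1KO list genes such as Heph (2.72) and Tfr2 (2.97) lie beyond the 10.

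The genes whose centred log2 CPM came closest to 3 of the 10 over the 12 libraries were found among 9587 genes by root-mean-square difference. For Slc40a1, which itself varied by 0.858 around its mean on this measure, the closest were Abcg1, a cholesterol exporter (0.307), Ivd (0.363) and Treml4 (0.363). For Fth1, which varied by 0.430, they were Etfrf1 (0.128), Bcl3 (0.140) and Abcc5 (0.157). No gene came close to Tfrc: the nearest, Nes, stood 0.497 away, where Tfrc itself varied by 0.961.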

How the data were processed

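RNA from 12 mouse macrophage libraries was sequenced, and each library has 1 deposited file that gives every listed gene an expected count, an FPKM and a transcript length. RSEM, Bowtie2, HISAT2 and StringTie were used with GRCm39 and mm39, per the submitters' processing notes; versions and settings are not given in the sources used here. The deposited expected counts are estimates of reads per gene, and the deposited FPKM divide them by length and library total, per the file headers and values. Of the 10 genes, 8 had whole expected counts in all 12 libraries, Ftl1 in 11 and Ncoa4 in 7. A gene not listed in a library was set to 0.

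Expected counts were rounded and tested in R 4.3.3 with edgeR 4.0.16: filterByExpr (12148 genes left), TMM factors (0.944 to 1.05), 1 robust quasi-likelihood fit of the 12 libraries with a coefficient per group, and Benjamini-Hochberg adjustment over all genes tested, with a call at an adjusted p under 0.05. Log2 transcript lengths were tested with limma 3.58.1 where the mean count was at least 50. Replicates of a group differed by 2.35 to 4.71 times counting noise (chi-square per degree of freedom). Same-numbered libraries of different groups did not deviate together (correlations -0.0787 to 0.0666), so the numbers were not used as pairs. Ratios were compared with exact two-sided permutation tests. Hairpin letters were read from GENCODE M21 transcripts. The scripts were tested on simulated data. Python 3.11.15, with pandas 2.3.3 and matplotlib 3.10.9, served for tables and plots.

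Alternatives were other scaling factors, DESeq2 1.42.0, limma on log2 FPKM with 1 or 0.1 added, other count filters, a replicate block, fitting just the compared groups and leaving out each library. List genes were named by rule, up to the 5 with the lowest adjusted p in each list and comparison, and Hmox1 and Acod1 were given as context. The neighbours of Tfrc, Slc40a1 and Fth1 were the 3 tested genes, averaging 5 CPM or more, with the lowest root-mean-square difference. Genes with provisional names, such as Gm and Rik symbols, were left out of that search. The 10 genes, the lists and the tests were chosen with earlier results of these data known, so they are not independent of them.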

Additional observations from a re-analysis of the deposited data

How the results depend on the processing

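No call of the 10 genes changed direction under the 15 alternatives of each comparison. With hemin the same 5 genes passed in all 15. With 4-OI, Ireb2 was lost in 7 of 15 (adjusted p up to 0.157) and Steap3 in 2. Between 4-OI and hemin, Ireb2 was lost in 10 of 15 (adjusted p up to 0.169), Steap3 in 4 (up to 0.190) and Ftl1 in both FPKM fits, while Fth1 passed in 1. With limma on FPKM the median of all genes moved with 4-OI to -0.11 (1 added) and -0.14 (0.1 added), and the split of called genes went from 3083 higher and 3043 lower to 1743 and 4608 (1 added). It went from 1152 and 940 to 621 and 1422 with hemin, and from 2500 and 2636 to 1726 and 3490 between 4-OI and hemin. The FPKM fits applied no TMM factors, which were 0.9444 to 0.9495 with 4-OI, 0.9926 to 1.003 with hemin and 1.033 to 1.05 in vehicle. Their part in these shifts, and in calls lost on FPKM, was not tested.

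Counts of small lists and of changed lengths also moved; the cause was not tested for the lists. With hemin, the uptake list had 3 called genes with DESeq2 and in both FPKM fits, against 5; the chaperone list had 1 in both FPKM fits, against 3; the IRP list had 2 in both FPKM fits, against 4; and the mitochondrial list had 1 with RLE or upper-quartile factors and in both FPKM fits, against 0. The 2 called in the IRP list on FPKM included Nubp1, which was lower and was not among the 4. With 4-OI the mitochondrial list had 3 with DESeq2, against 6. Leaving out 1 library gave 3 to 4 for the uptake list with hemin, 1 to 3 for the chaperone list, 2 to 4 for the IRP list and 0 to 1 for the mitochondrial list. It gave 3 to 6 for the mitochondrial list with 4-OI, and 6 to 10, 3 to 4 and 1 to 3 for the uptake, IRP and mitochondrial lists in Irg1KO. Genes with a changed transcript length numbered 11 to 28 in Irg1KO (against 39), 23 to 53 with 4-OI (against 77) and 0 to 1 with hemin; fewer libraries were fitted there.

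A replicate block, although the numbers pair no libraries, gave 27 changed lengths with 4-OI and 1 with hemin, and ended the length calls of Slc11a1 (adjusted p = 0.0592) and Aco1 (adjusted p = 0.103). The counts of the 10 genes called stayed at 3 in Irg1KO, 10 with 4-OI, 5 with hemin and 9 between the treatments under the block. With 3 libraries a group, a small change such as that of Ireb2 rests on the spread of few values, and intervals cover these libraries only.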

Other observations

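Of 16 tested genes of mitochondrial iron and iron-sulfur assembly, edgeR called 0 with hemin (3 at an unadjusted p under 0.05), 3 higher and 3 lower with 4-OI, and 2 lower in Irg1KO, beside 17.2%, 50.4% and 39.8% of all genes. Slc25a37, the mitochondrial iron importer mitoferrin 1, rose with 4-OI from 79.8 ± 6.88 to 111.9 ± 2.72 CPM (log2 fold change 0.49, SE 0.06, adjusted p = 2.55e-09) and stood at 0.15 with hemin (SE 0.06, adjusted p = 0.0703; 0.0128 without vehicle replicate 1). Nfu1, an iron-sulfur carrier, fell by 0.25 with 4-OI (SE 0.07, adjusted p = 0.00387). Without 4-OI replicate 2 the 4-OI count was 3 in place of 6, without any 1 vehicle library the hemin count was 1, and the Irg1KO count was 1 without vehicle replicate 3 or Irg1KO replicate 2.

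Among 5 tested mRNAs outside the 10 genes for which an iron responsive element is known or proposed, Epas1, a hypoxia factor, fell by 0.36 with hemin (SE 0.08, adjusted p = 0.000579) and by 0.41 with 4-OI (SE 0.08, adjusted p = 2.05e-05), and rose by 0.55 in Irg1KO (SE 0.07, adjusted p = 2.12e-08). Cdc42bpa, a kinase, rose by 1.71 in Irg1KO (SE 0.08, adjusted p = 4.93e-20) and by 0.60 with 4-OI (SE 0.09, adjusted p = 2.47e-07), and stood at 0.09 with hemin (SE 0.09, adjusted p = 0.553). In all, 0 rose and 1 fell with hemin, 2 rose and 3 fell with 4-OI, and 3 rose and 1 fell in Irg1KO, beside the same shares of all genes; in Irg1KO the stromal markers were raised, and their part was not tested.

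Promoters from 250 bases before to 50 after the start (RefSeq, build GRCm38.p6) were searched on both strands for TGACNNNGC, the core letters of the antioxidant response element. They were found in 1 of the 15 promoters listed for 8 of the iron genes, 1 of those of Ncoa4, and in 12.4% of 32851 promoters. Slc40a1 and Slc11a2 had no entry.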
